A study of Mus musculus with 12 samples.

Results

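The 10 genes Arntl, Clock, Per1, Per2, Per3, Cry1, Cry2, Nr1d1, Nr1d2 and Dbp, which form the core of the circadian clock and its best known output, were followed in RNA-seq libraries of adult mouse cardiomyocytes. They were taken by symbol from the 21493 genes of the deposited count tables, and all 10 passed the filter on low counts. The cells came from 3-month-old mice on the 129SV background that had the muscle intermediate filament protein desmin (Des+/+) or lacked it (Des-/-). Within each genotype the mice had undergone swimming exercise as a stress (swim) or had not (non-swim), which gave 4 groups of 3 libraries. The study's methods describe both genotypes as homozygous for a GFP reporter under the αMHC promoter, which is active in cardiomyocytes, and state that each library held cells from several mice. The labels describe enzymatic isolation of the cells. A replicate is therefore a pool of animals, and the p-values measure the spread between these pools. The hour of day at which the hearts were taken is not given in the sources used here.

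In the clock, the proteins ARNTL (also called BMAL1) and CLOCK pair and activate transcription at E-box sequences. Among their targets are the Per and Cry genes, whose proteins return to block ARNTL and CLOCK, and Nr1d1 and Nr1d2 (also called Rev-erbα and Rev-erbβ), nuclear receptors that repress Arntl. Dbp, a bZIP factor acting at D-box sequences, is a direct target that passes the rhythm on to other genes. Most cells run this loop, the heart muscle cell included, where the clock is known for its hold on metabolism and ion channel expression. In a cell with a running clock, Arntl transcripts peak at about the opposite time of day from Dbp and Nr1d1 transcripts, so the level of a clock gene depends on when the tissue is taken.

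Reads assigned to genes ranged from 4320819 to 12072443 per library, and at the shallowest depth 3 counts corresponded to 0.656 CPM (reads of a gene per 1000000 reads of the scaled library total). The Des-/- swim libraries were the shallowest, at 4320819 to 6521963 reads in genes. The share of uniquely aligned reads not assigned to a single gene was higher in every swim than in every non-swim library of the same genotype. The part of depth and of this share in the swimming values was not tested. The targeted gene Des followed the labels, at 973 to 3647 CPM in the Des+/+ and 50.3 to 101 CPM in the Des-/- libraries. All 8 cardiomyocyte markers were detected in every library, with a summed level of 24953 to 80971 CPM in Des+/+ and 4608 to 24495 CPM in Des-/- libraries. The libraries numbered 3 of both Des-/- groups stood apart. Their 8 fibroblast markers summed to 39661 (non-swim) and 13416 CPM (swim), against 3638 to 8785 CPM in the other Des-/- and 2179 to 3682 CPM in the Des+/+ libraries. Their 8 macrophage markers summed to 3746 and 1027 CPM, against 187 to 539 CPM in all other libraries, and no marker of either list was at 0 in any library. Each also had the lowest cardiomyocyte marker sum of its group, 4608 CPM (non-swim) and 11948 CPM (swim). The calls of the clock genes are also given without these 2 libraries, an alternative chosen after the data were seen, while the spreads and correlations are given over all 12. In these bulk samples fewer cells of a type and less RNA per cell cannot be told apart.

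To compare the genes with each other, levels were divided by exon length, as CPM per kilobase. In Des+/+ non-swim libraries Nr1d1 stood highest, at 86.3 ± 5.92 CPM per kilobase (SD, n = 3), followed by Dbp at 44.0 ± 22.9 and Nr1d2 at 34.1 ± 5.80 (SD, n = 3). Per1 followed at 17.8 ± 10.1 CPM per kilobase (SD, n = 3). Cry2, Per2, Clock, Cry1 and Per3 lay between 8.36 and 3.93 CPM per kilobase on average, and Arntl was lowest at 2.60 ± 1.00 (SD, n = 3). In that group the libraries of Nr1d1 did not overlap those of Dbp, nor did those of Nr1d2 overlap those of Per1, while every other pair of neighbours in the order overlapped. By mean, Arntl was last in all 4 groups, and Nr1d1, Dbp and Nr1d2 took the highest places in each. Arntl libraries overlapped those of Per3, the gene before it, in both non-swim groups. Nr1d2 overlapped the gene after it in every group but Des+/+ non-swim. After swimming Per2 moved from place 6 to 4 in Des+/+ libraries, with a mean of 36.0 ± 14.4 CPM per kilobase (SD, n = 3), and from 7 to 5 in Des-/- libraries, with 21.2 ± 9.58 (SD, n = 3). At these ranks its libraries overlapped those of its neighbour Per1 in Des+/+ and in Des-/-.

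**Figure D1:**
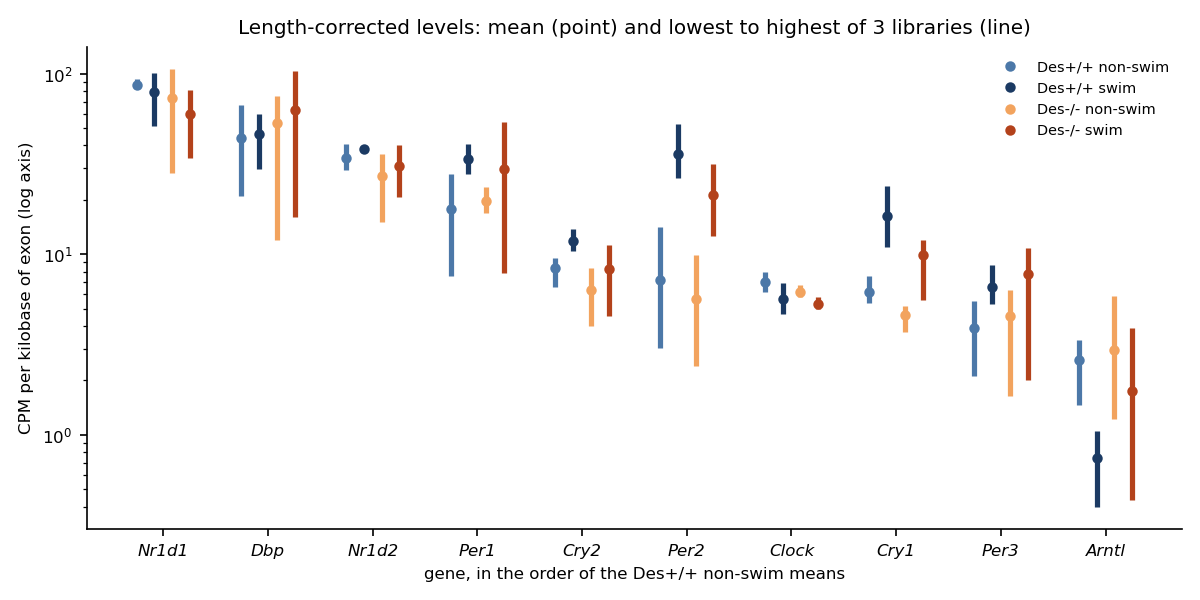
Level of each clock gene in CPM per kilobase of exon (log axis) for the 4 groups, in the order of the Des+/+ non-swim means; points are means and lines run from the lowest to the highest of 3 libraries. Nr1d1, Dbp and Nr1d2 had the highest means and Arntl the lowest in every group, and Per2 and Cry1 had higher means in the swim than in the non-swim groups.

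The contrast between swim and non-swim libraries asks how the clock genes stood after the exercise stress, and here the repressor arm gave the largest values. Per2 (GRCm38 chr1:91415982-91459324, minus strand) encodes a partner of the CRY proteins in the complex that blocks ARNTL and CLOCK. It was at 25.3, 17.8 and 82.7 CPM in the Des+/+ non-swim libraries (replicates 1 to 3) and at 171, 308 and 154 CPM in the Des+/+ swim libraries. In Des-/- it was at 26.8, 58.2 and 14.1 CPM without and at 114, 185 and 73.9 CPM after swimming. All swim libraries were thus above all non-swim libraries of their genotype. The fold was 5.01 in Des+/+ (log2 2.32, SE 0.64, edgeR adjusted p 0.108) and 3.76 in Des-/- (log2 1.91, SE 0.63, edgeR adjusted p 0.208), so that neither passed the threshold of an adjusted p under 0.05.

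Cry1 (chr10:85131700-85185064, minus strand), which encodes a cryptochrome, was at 18.6, 18.0 and 25.3 CPM in Des+/+ non-swim and at 36.7, 80.0 and 46.4 CPM in Des+/+ swim libraries. In Des-/- it was at 16.6, 17.3 and 12.3 CPM without and at 40.2, 40.0 and 18.6 CPM after swimming. Here too the groups did not overlap, although the swim library numbered 3 of Des-/- lay close to its non-swim libraries. The fold was 2.63 in Des+/+ (log2 1.40, SE 0.33, edgeR adjusted p 0.0852) and 2.14 in Des-/- (log2 1.10, SE 0.34, edgeR adjusted p 0.201).

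The remaining members of the repressor arm were higher on average after swimming in both genotypes, with less separation. Per1, a period gene that also responds to stress hormones, was at 42.8 to 156 CPM in Des+/+ non-swim and 156 to 229 CPM in Des+/+ swim libraries, which left a gap of under 1 CPM between the groups (155.9 against 156.4). In Des-/- libraries Per1 ran from 94.6 to 133 CPM without swimming and spread from 44.5 to 305 CPM after it. Cry2, the other cryptochrome gene, was at 41.6 to 60.5 CPM and 65.4 to 87.7 CPM in Des+/+ and at 25.3 to 53.2 CPM and 28.6 to 70.9 CPM in Des-/- libraries. Per3, a period gene not required for the rhythm itself, overlapped between swim and non-swim libraries in both genotypes. The log2 changes of Per1, Per3 and Cry2 were 0.91, 0.73 and 0.50 in Des+/+ and 0.58, 0.78 and 0.39 in Des-/-, each with an edgeR adjusted p of at least 0.380.

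The promoters of these genes are shown because the loop acts through short sequences in them. RefSeq windows (GRCm38.p6, from 250 bases before to 50 bases after a transcript start) matched 9 of the 10 genes, all but Per2. Both strands were searched for the E-box CACGTG, its variant CACGTT, which reads AACGTG on the other strand, the D-box forms TTATGTAA and TTACGTAA, and AGGTCA, the half-site bound by nuclear receptors. The sites found did not overlap each other. Of all 32851 windows in the table, 7.15% held the E-box, 4.68% its variant, 0.938% and 0.119% the D-box forms, and 16.3% the half-site. Stretches of 120 bases before the start of Cry1 (chr10:85185055-85185174, minus strand), Per1 (chr11:69098749-69098868, plus strand), Per3 (chr4:151044776-151044895, minus strand) and Nr1d1 (chr11:98775378-98775497, minus strand) are given with the motifs in capitals, the E-box or its variant in Cry1, Per1 and Nr1d1 and the D-box in Per3.

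Cry1: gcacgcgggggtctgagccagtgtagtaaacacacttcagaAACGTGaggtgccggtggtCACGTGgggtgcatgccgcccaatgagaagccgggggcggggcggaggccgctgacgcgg

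Per1: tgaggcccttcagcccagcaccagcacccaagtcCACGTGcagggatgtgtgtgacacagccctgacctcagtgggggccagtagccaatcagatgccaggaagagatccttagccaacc

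Per3: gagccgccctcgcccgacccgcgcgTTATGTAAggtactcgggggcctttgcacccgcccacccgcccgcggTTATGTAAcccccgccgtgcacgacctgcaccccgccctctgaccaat

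Nr1d1: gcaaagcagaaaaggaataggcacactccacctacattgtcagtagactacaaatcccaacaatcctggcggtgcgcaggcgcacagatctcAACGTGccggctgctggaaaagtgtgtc

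Cry1 carried an E-box whose first base lay 60 bases before the start and the variant 79 bases before it. Per1 had an E-box at 166 bases, Cry2 the variant at 166 bases and Nr1d1 the variant at 28 bases before the start. Per1 has another start, whose window held none of the searched letters. Per3 held the D-box at 205 and at 158 bases before its start. In Dbp none of the searched letters occurred in the window. A half-site was found in a window of Arntl (32 bases into the transcript), Clock, Per1 and Nr1d2. These matches describe the letters of the windows only.

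In the activator arm the values went the other way. Arntl (chr7:113207465-113314126, plus strand) was at 25.3, 22.3 and 11.0 CPM in Des+/+ non-swim and at 7.91, 5.78 and 2.99 CPM in Des+/+ swim libraries, so the groups did not overlap. The fold was 0.287 (log2 -1.80, SE 0.78, edgeR adjusted p 0.226). In Des-/- libraries Arntl was at 13.4, 9.17 and 44.3 CPM without and at 6.83, 3.28 and 29.4 CPM after swimming, with the highest value of each group in the library numbered 3. Those groups overlapped, and the log2 change was -0.75 (SE 0.75, edgeR adjusted p 0.632). It was -1.10 without both libraries numbered 3 (edgeR adjusted p 0.338). Clock, the steadiest of the 10 genes, stayed between 64.3 and 109 CPM in all 12 libraries, with log2 changes of -0.30 (SE 0.16) in Des+/+ and -0.23 (SE 0.16) in Des-/- and edgeR adjusted p of 0.304 and 0.466. In Des-/- its swim libraries (68.7 to 79.3 CPM) lay just under its non-swim libraries (79.6 to 93.0 CPM).

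The nuclear receptors and Dbp had estimates near 0 for swimming, and Dbp varied widely between libraries. The SD of log2 CPM in Des+/+ non-swim and swim libraries was 0.10 and 0.50 for Nr1d1 and 0.24 and 0.05 for Nr1d2. In Des-/- it was 1.03 and 0.64 for Nr1d1 and 0.66 and 0.49 for Nr1d2. Nr1d1 was at 259, 251 and 286 CPM in Des+/+ non-swim and at 259, 158 and 310 CPM in Des+/+ swim libraries, and at 327, 264 and 86.8 CPM and 249, 196 and 105 CPM in the Des-/- groups. Dbp was at 62.7, 133 and 200 CPM in Des+/+ non-swim, 150, 88.7 and 178 CPM in Des+/+ swim, 226, 216 and 35.9 CPM in Des-/- non-swim and 310, 210 and 47.9 CPM in Des-/- swim libraries. In both Des-/- groups the low value of either gene was that of the library numbered 3. The log2 change with swimming was -0.13 and -0.30 for Nr1d1, 0.17 and 0.18 for Nr1d2, and 0.08 and 0.25 for Dbp, in Des+/+ and Des-/- libraries in that order, with edgeR adjusted p of at least 0.752. For Dbp the 95% interval reached from -1.56 to 1.71 in Des+/+ and from -1.38 to 1.89 in Des-/-, so changes of over 2-fold either way lie inside it.

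The exons of Nr1d1 and of Thra, a thyroid hormone receptor gene on the opposite strand, overlap by 263 bases at their ends, 8.55% of the exon length of Nr1d1. Labels and methods differ on whether the kit kept the strand of the RNA, so the reads of this stretch are uncertain. Thra was at 91.6 to 196 CPM in all libraries. In the libraries numbered 3 of Des-/- it was at 120 CPM (non-swim) and 113 CPM (swim), the lowest of each group as for Nr1d1, with the other Des-/- libraries at 125 to 196 CPM.

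**Figure D2:**
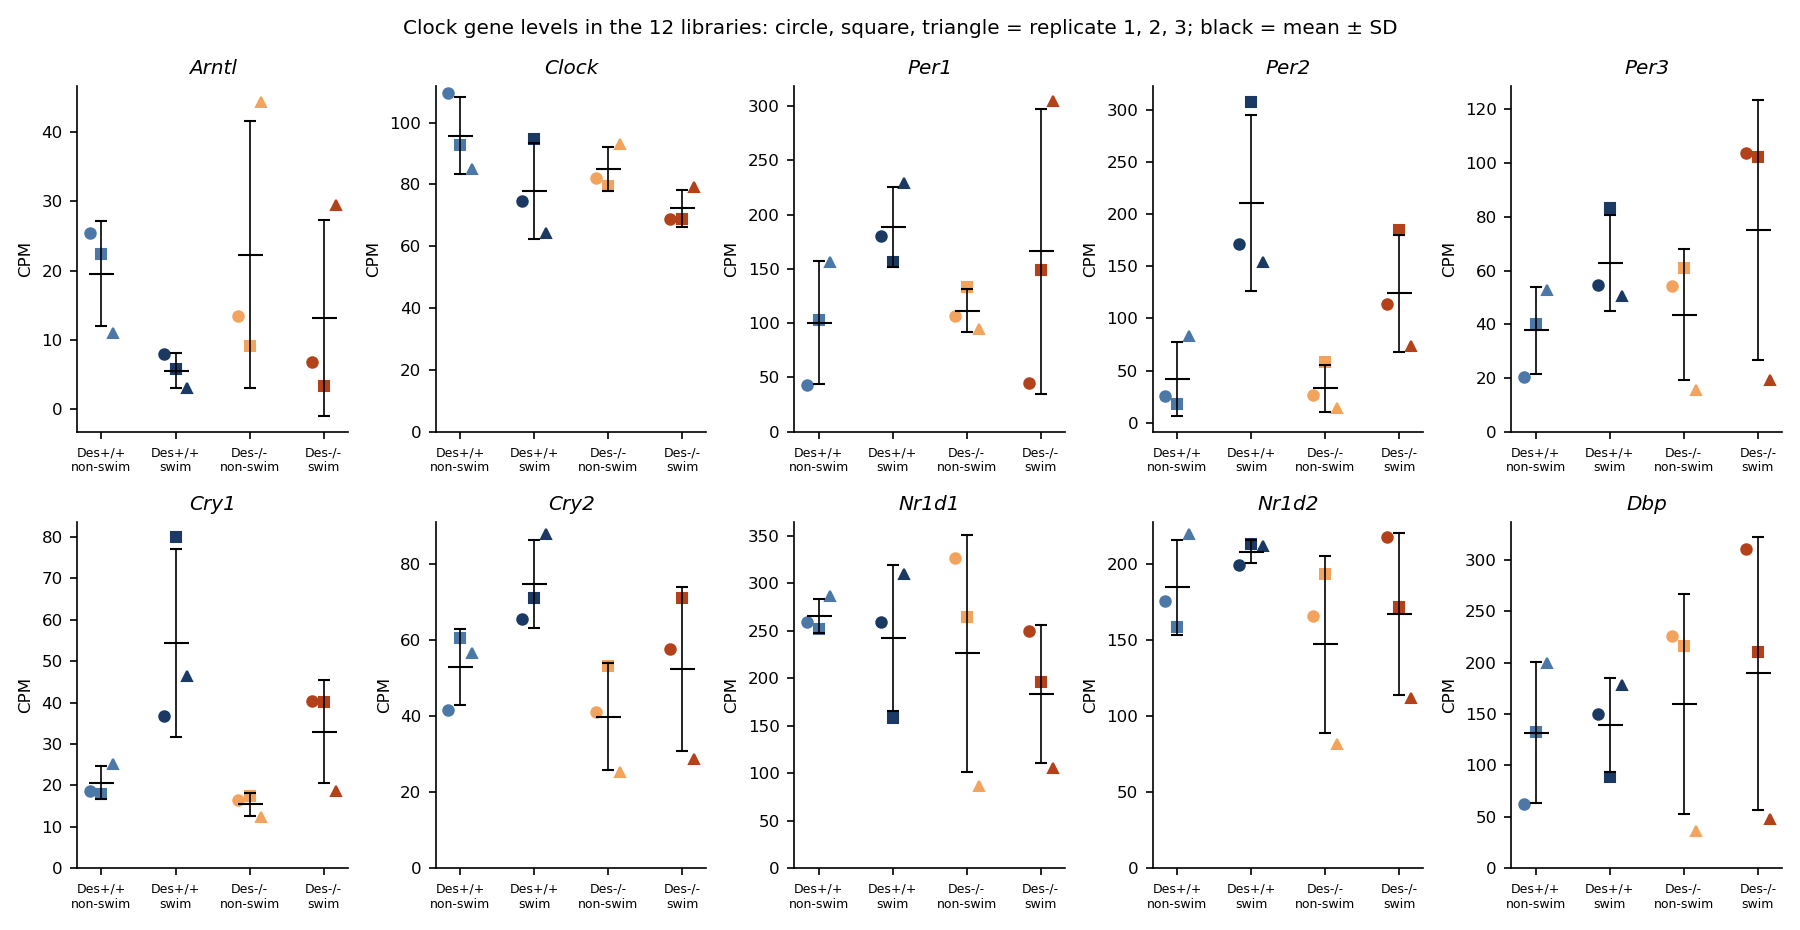
Level of each clock gene in every library, in CPM on a linear axis, for the 4 groups; circle, square and triangle mark replicates 1, 2 and 3, and black bars are the mean ± SD (n = 3). Per2 and Cry1 were higher in all swim than in all non-swim libraries of the same genotype, and the triangles of the Des-/- groups stood apart for Arntl (high) and for Dbp, Nr1d1, Nr1d2, Per3 and Cry2 (low).

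The cardiomyocyte marker sum was lower after swimming in Des+/+ (24953 to 43471 against 52259 to 80971 CPM) and overlapped in Des-/- (11948 to 21415 against 4608 to 24495 CPM), with none of the 8 markers called. Its part in the clock gene values was not tested.

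Counted over the 10 genes, edgeR called none for swimming in either genotype, where 0.0912% of all 13158 genes tested were called in Des+/+ and 0.0228% in Des-/-. At an unadjusted p under 0.05 there were 3 of the 10 in Des+/+ (Per2, Cry1 and Arntl) against 20.5% of all genes, and 2 in Des-/- (Per2 and Cry1) against 16.7%. The same genes passed the filter on fold and unadjusted p that the study used, against 10.3% of all genes in Des+/+ and 8.6% in Des-/-. DESeq2 called Per2 and Cry1 in Des+/+, where it called 7.09% of genes, and Per2 in Des-/-, where it called 2.66%. In a fit of the 6 Des+/+ libraries alone edgeR called Cry1 (adjusted p 0.0430), where 2.25% of genes were called. The libraries of swim and non-swim groups did not overlap for 5 of the 10 genes in Des+/+ and for 3 in Des-/-, against 31.3% and 19.4% of all genes. Swim libraries lay above for 4 genes in Des+/+ and 2 in Des-/-, against 12.5% and 10.4% of all genes. Per2 and Cry1 were above in both genotypes, a pattern seen in 1.79% of all genes. A comparison of 3 against 3 libraries allows no exact permutation p under 0.1. The median log2 change of the 10 genes was 0.34 in Des+/+ and 0.32 in Des-/-, against -0.08 and -0.01 over all genes.

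Averaged over the genotypes in the same fit, a contrast added after the data were seen, Cry1 rose after swimming (log2 1.25, SE 0.24, edgeR adjusted p 0.0385), 1 of the 10 genes where 0.828% of all genes were called. At an unadjusted p under 0.05 there were 4 of the 10 against 19.6%, and 3 passed the study's filter against 6.04%. DESeq2 called Per2 and Cry1, and 6.62% of genes. Per2 was at a log2 change of 2.12 (SE 0.45, edgeR adjusted p 0.0555), and with no filter on low counts it was called (edgeR adjusted p 0.0404), where 0.725% of genes were. Arntl was at -1.27 (SE 0.54, edgeR adjusted p 0.224) and Clock at -0.26 (SE 0.11, edgeR adjusted p 0.224). The call of Cry1 held on leaving out replicate 1 of Des+/+ swim (edgeR adjusted p 0.0477) or replicate 3 of Des-/- swim (0.0162) and was lost on leaving out any other library (0.0547 to 0.106). Per2 was called on leaving out replicate 3 of Des+/+ non-swim (edgeR adjusted p 0.0439) or replicate 3 of Des-/- swim (0.0393). The call of Cry1 was also lost with the replicate number as a block over all 12 libraries (edgeR adjusted p 0.0541), where 0.593% of genes were called. The labels give only a number, and a pairing by it was read from these same data, for Des-/- only. With the block restricted to that genotype Arntl, Per2 and Cry1 were called (edgeR adjusted p 0.0216, 0.0118 and 0.0118), where 5.15% of genes were called.

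Within Des-/-, libraries with the same number deviated together (r of 0.36, 0.32 and 0.60), although libraries 1 and 2 deviated with each other almost as much (0.30 and 0.29) and only the libraries numbered 3 were set off from the rest. The log2 change from non-swim to swim was 2.07, 1.66 and 2.37 for Per2, 1.27, 1.20 and 0.59 for Cry1, and -0.95, -1.42 and -0.59 for Arntl in pairs 1, 2 and 3. All 3 pairs showed the same direction for these genes, as they did for Clock (-0.21 to -0.26), Per3 (0.30 to 0.93) and Cry2 (0.18 to 0.49). Per1 went from -1.25 to 1.69 across the pairs, and Nr1d1, Nr1d2 and Dbp also changed direction between them. The pairing was read from these same data, and the share of all genes with 1 direction over the pairs was not counted. The agreement between pairs is therefore a description only. In the fit with that block no clock gene was called for swimming in Des-/-, where 2.77% of genes were. Per2 came to an adjusted p of 0.0544 and Cry1 to 0.0739 by edgeR.

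Without both Des-/- libraries numbered 3, edgeR called Arntl (log2 -1.72, adjusted p 0.0370), Per2 (log2 2.40, adjusted p 0.0318) and Cry1 (log2 1.48, adjusted p 0.0161) for swimming in Des+/+. The Des+/+ libraries are the same in that fit, and 5.62% of all genes were called in it against 0.0912% with all libraries. In Des-/- none of the 10 was called without them, against 0.545% of all genes, and Per1 stood at a log2 change of -0.30 there, against 0.58 with all libraries. Averaged over genotypes the same 3 genes, Arntl, Per2 and Cry1, were called without these libraries, where 3.16% of genes were.

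**Figure D3:**
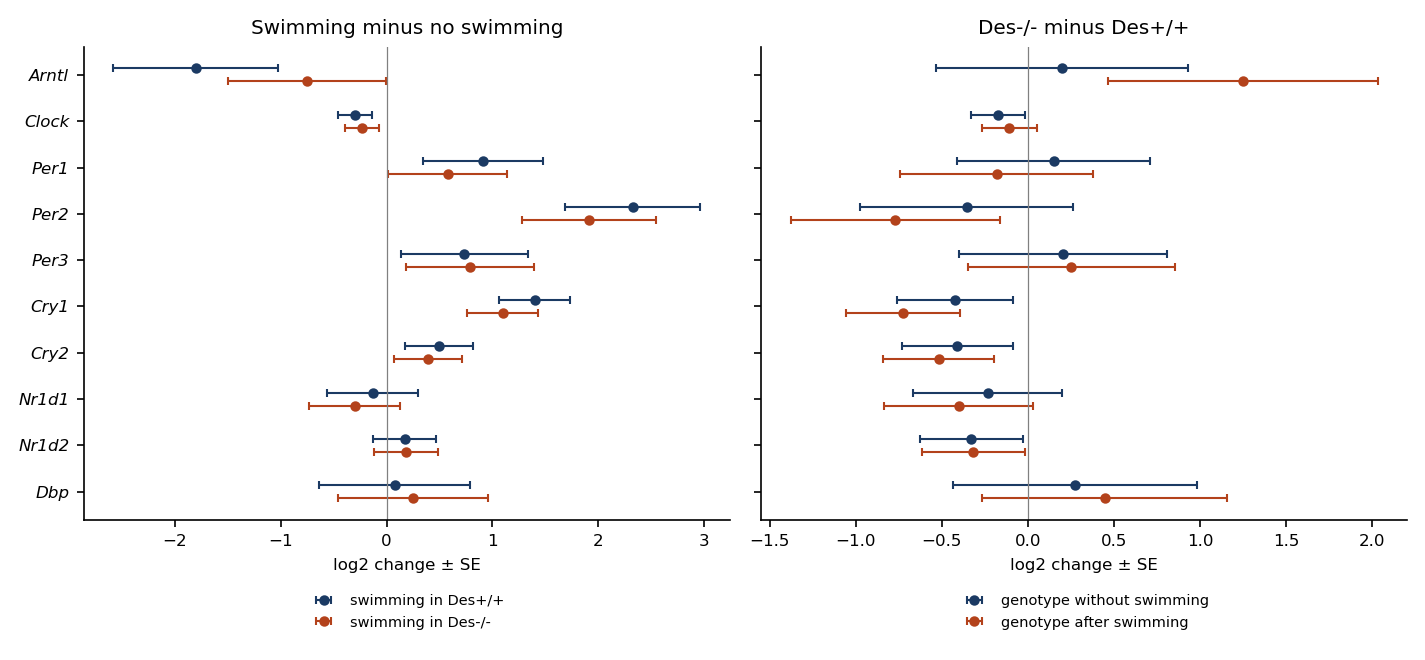
Log2 change of each clock gene with its standard error, for swimming in each genotype (left) and for genotype with and without swimming (right), from the edgeR fit to all 12 libraries. Per2 and Cry1 lay above 0 and Arntl below 0 for swimming in both genotypes, and no point passed the threshold on the adjusted p.

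The contrast between Des-/- and Des+/+ libraries asks whether the clock genes differed with the loss of desmin. None of the 10 was called by edgeR, where 32% of all genes were called without and 10.6% after swimming, and DESeq2 called none of them either (34.7% and 16.4% of all genes). Intervals around the log2 change, at the level used above for Dbp, were wide for several of them. Without swimming they were -1.49 to 1.88 for Arntl, -1.78 to 1.07 for Per2 and -1.36 to 1.91 for Dbp. The interval for Clock was narrower, at -0.54 to 0.19. After swimming they were -0.56 to 3.05 for Arntl and -2.17 to 0.63 for Per2. The lack of calls therefore did not show equal levels in the genotypes. The study's filter passed none without swimming and Cry1 after it, against 32% and 17.6%. At an unadjusted p under 0.05 there were 0 of the 10 without swimming and 1 after it, against 43.7% and 30.5% of all genes. That gene was Cry1, at 18.6 to 40.2 CPM in Des-/- swim and 36.7 to 80.0 CPM in Des+/+ swim libraries (log2 -0.73, SE 0.33, edgeR adjusted p 0.163). Without swimming Cry1 was also lower in all Des-/- than in all Des+/+ libraries, at 12.3 to 17.3 against 18.0 to 25.3 CPM (log2 -0.43, SE 0.34, edgeR adjusted p 0.357). It was the only clock gene whose genotypes did not overlap in this comparison, against 47.9% of all genes, and after swimming no clock gene was apart, against 35.9%.

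For the other genes the genotype change lay between -0.41 and 0.27 on the log2 scale without swimming. After swimming it lay between -0.77 (Per2) and 1.25 (Arntl). These values moved with the libraries numbered 3 of Des-/-. Without both of them Arntl went from 0.20 to -0.72 in the comparison without swimming and from 1.25 to -0.10 after swimming, and Nr1d1 went from -0.23 to 0.22 without swimming. No clock gene was called for genotype in that fit, where 28% and 11.9% of genes were. Immediate early genes, which respond within minutes to stimuli that include the handling of cells, were called higher in Des-/- libraries for 10 of 12 genes without swimming (14% of all genes) and 7 of 12 after it (5.01%). Without the Des-/- libraries numbered 3 these counts were 8 and 6 of the 11 genes of the list tested in that fit. Per1, a clock gene that is not in this list, was at log2 changes of 0.15 and -0.18. The part of cell make-up and handling in the clock gene values was not tested. The genotype comparison without swimming and the swimming comparison in Des+/+ share their Des+/+ non-swim libraries.

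The difference between the swimming changes of the genotypes was tested by the interaction term. No clock gene was called by edgeR, which called 0% of all genes with or without the Des-/- libraries numbered 3. DESeq2 called none either, and 3.96% of the 8037 genes to which it gave an adjusted p. It gave none to Arntl (log2 1.03), so Arntl was not assessed there. None of the 10 passed the study's filter, against 13.1% of all genes. At an unadjusted p under 0.05 there were 0 of the 10, against 16.3% of all genes. The smallest edgeR adjusted p was 0.627, for Arntl (log2 1.05, SE 1.07, 95% interval -1.41 to 3.51). For Per2 the interaction was -0.41 (95% interval -2.41 to 1.58) and for Cry1 -0.30 (95% interval -1.39 to 0.78). These intervals include differences of more than 2-fold for each of the 3 genes, so a like response of the genotypes was not shown.

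Clock genes varied more between libraries of a group than most genes did. The median over the 10 genes of the SD of log2 CPM was 0.46 in Des+/+ non-swim, 0.44 in Des+/+ swim, 0.84 in Des-/- non-swim and 0.67 in Des-/- swim libraries, against 0.22, 0.23, 0.25 and 0.26 over all genes tested. Clock had an SD of at most 0.28 in each group. In the Des-/- non-swim library numbered 3, Arntl lay at least 2-fold above and Dbp, Nr1d1, Nr1d2 and Per3 at least 2-fold below both other libraries of its group, 5 of the 10 genes against 9.99% of all genes. In the Des-/- swim library numbered 3, Arntl and Per1 lay above and Cry1, Dbp and Per3 below in the same way, again 5 of the 10, against 9.37% of all genes. The other 10 libraries had 0 to 2 such clock genes each. In Des+/+ non-swim replicate 1 these were Dbp and Per1 (low), and in replicate 3 Per2 (high) and Arntl (low).

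The ratio of Arntl to Dbp reads within a library does not depend on scaling and sums up these shifts, and it is compared here between libraries only. In the Des+/+ libraries its log2 was -1.31, -2.57 and -4.18 without and -4.25, -3.94 and -5.90 after swimming. In the Des-/- libraries it was -4.08, -4.56 and 0.31 without and -5.51, -6.00 and -0.70 after swimming. Replicates 3 of both Des-/- groups were thus the highest of the 12, and replicate 1 of Des+/+ non-swim came next. The log2 ratio of Arntl to Nr1d1 was -3.35, -3.49 and -4.70 in Des+/+ non-swim and -5.03, -4.78 and -6.70 in Des+/+ swim libraries. In the Des-/- groups it was -4.61, -4.85 and -0.97 without and -5.19, -5.90 and -1.84 after swimming. The swim and non-swim groups of Des+/+ did not overlap for the Arntl to Nr1d1 ratio, and those of Des-/- overlapped. The 2 libraries with the highest ratios were also the 2 highest of all 12 in fibroblast and in macrophage markers, and whether these cells had a part in the ratios was not tested. The highest ratio among the Des+/+ libraries was that of non-swim replicate 1 for Dbp. It came with 3682 CPM of fibroblast and 286 CPM of macrophage markers, each the highest sum among the Des+/+ libraries. Replicates 1 and 2 of Des-/- non-swim had higher sums still, at least 7960 CPM of fibroblast and 345 CPM of macrophage markers. Their log2 ratios of Arntl to Dbp were nevertheless lower, at -4.08 and -4.56.

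**Figure D4:**
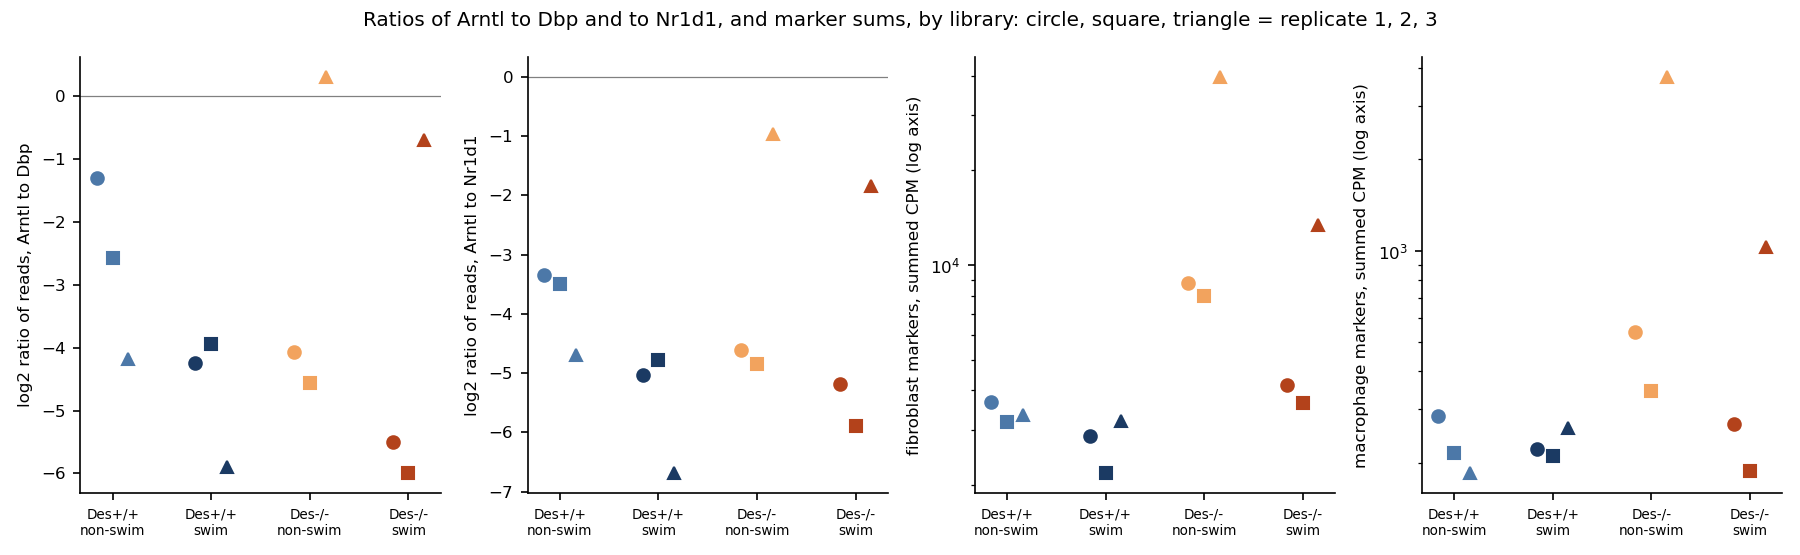
Log2 ratio of Arntl reads to Dbp and to Nr1d1 reads in each library (panels 1 and 2, grey line at 0) and summed CPM of 8 fibroblast and 8 macrophage markers (panels 3 and 4, log axes), for the 4 groups; circle, square and triangle mark replicates 1, 2 and 3. The triangles of both Des-/- groups were highest in every panel, with Arntl to Dbp ratios of 0.31 and -0.70.

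Over the 12 libraries, Npas2, which encodes a paralog of CLOCK that also pairs with ARNTL, had the pattern most like Arntl of the 12157 genes whose count averaged 20 or more (Pearson r = 0.94 of log2 CPM). Ncs1, Clptm1l, Spon2 and Itsn1 followed, with r from 0.93 to 0.88. The pattern most like Dbp was that of Cyp2e1 (r = 0.91), then Tef, a bZIP factor of the same family as Dbp (r = 0.89), Wnt9b, Ptp4a3 and Wif1 (r = 0.89 to 0.88). For Nr1d1 it was Lifr (r = 0.88), followed by Kif26a, Oaz2, Ptch1 and Wdr20 (r = 0.88 to 0.85). At the other end, r with Arntl was -0.88 for Cry2, -0.85 for Per3, -0.84 for Tef, -0.82 for Per2 and -0.81 for Cry1. Their ranks from the lowest r were 7, 17, 25, 38 and 51. The other clock genes were at -0.75 (Nr1d2), -0.71 (Dbp), -0.49 (Nr1d1), -0.24 (Per1) and 0.69 (Clock). Nr1d2, Dbp, Nr1d1 and Per1 ranked 131, 213, 952 and 2852 from that end. With the group means removed, r was 0.90 for Arntl with Npas2, 0.97 for Dbp with Tef and -0.94 for Arntl with Cry2. These points share the 2 Des-/- libraries that stand apart, and the correlations are descriptions across 12 libraries.

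Of 18 further genes of the clock network, 16 passed the filter, Rorb and Fbxl21 being the exceptions. For swimming none was called by edgeR in either genotype, with 3 higher and 1 lower at an unadjusted p under 0.05 in Des+/+ (8.46% and 12% of all genes) and 0 higher and 3 lower in Des-/- (7.77% and 8.96%). Npas2 was at 8.13, 13.2 and 4.06 CPM in Des+/+ non-swim and at 2.83, 0.856 and 1.14 CPM in Des+/+ swim libraries, a log2 change of -2.38 (SE 0.80, edgeR adjusted p 0.146), with the groups apart as for Arntl. In Des-/- it was at 5.53, 4.87 and 15.6 CPM without and at 2.28, 1.75 and 11.5 CPM after swimming. Csnk1d and Csnk1e, the kinases that phosphorylate PER proteins, were at log2 changes of 0.49 (SE 0.13, edgeR adjusted p 0.106) and 0.59 (SE 0.18, edgeR adjusted p 0.128) in Des+/+. In Des-/- their values were -0.10 and 0.37 (edgeR adjusted p 0.722 and 0.334). Without both Des-/- libraries numbered 3, Npas2 (log2 -2.30, edgeR adjusted p 0.0283), Csnk1d (log2 0.56, edgeR adjusted p 0.0382) and Csnk1e (log2 0.67, edgeR adjusted p 0.0229) were called for swimming in Des+/+, and none of the list in Des-/-.

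For genotype, 1 of the 16 was called without swimming, where 32% of all genes were called and 14% called higher. Bhlhe40, an E-box repressor, rose in Des-/- libraries from 97.6, 87.7 and 150 CPM to 138, 182 and 323 CPM (log2 0.94, SE 0.32, edgeR adjusted p 0.0422), the groups overlapping. After swimming Fbxw11, a subunit of a ubiquitin ligase that marks PER proteins for degradation, was the only gene of the list called (10.6% of all genes, 5.57% lower), lower in Des-/- at 63.3, 63.6 and 68.8 CPM against 85.7, 97.5 and 89.8 CPM (log2 -0.48, SE 0.12, edgeR adjusted p 0.0280). Without both Des-/- libraries numbered 3 Fbxw11 was still called (edgeR adjusted p 0.0400), while Bhlhe40 was not (log2 0.59, edgeR adjusted p 0.0848).

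The bZIP factors showed the library pattern of Dbp. Tef and Hlf, activators of the same family, had the lowest values of their groups in the Des-/- libraries numbered 3. Tef stood there at 64.5 CPM (non-swim) and 118 CPM (swim), against 121 to 373 CPM in all other libraries. Hlf stood at 4.46 and 8.62 CPM, against 20.9 to 46.2 CPM elsewhere. Nfil3, the repressor that competes for D-box sites, went the other way, at 53.2 and 42.3 CPM in those 2 libraries and 5.63 to 19.8 CPM in the others. Hlf, Nfil3 and Npas2 were chosen for description after their values were seen. None of these genes was called in any comparison of all 12 libraries. Without those 2 libraries Nfil3 was called lower in Des-/-, at a log2 change of -1.22 without swimming (edgeR adjusted p 0.00636) and -0.96 after it (edgeR adjusted p 0.0410).

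**Figure D5:**
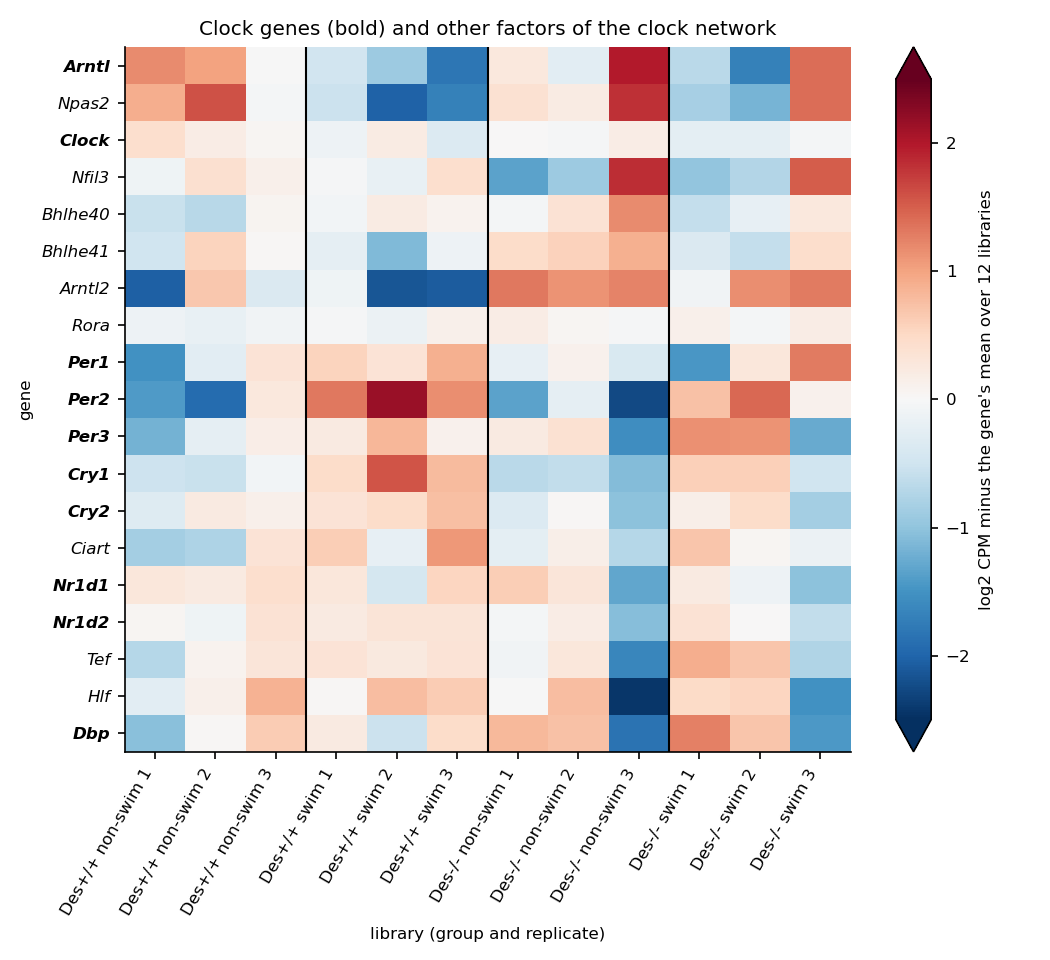
Log2 CPM of the 10 clock genes (bold) and 9 other factors of the clock network in the 12 libraries, as the difference from each gene's mean over all libraries (red above, blue below, colours limited to 2.5 either way). Arntl, Npas2 and Nfil3 were high and Dbp, Tef and Hlf low in the Des-/- libraries numbered 3, and Per2 and Cry1 were above their means in the Des+/+ swim libraries.

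Of 10 genes often described as driven by the clock in heart or other tissues, 8 fell in Des-/- libraries without swimming, where 18% of all genes were called lower. They included Pdk4, a kinase that restrains glucose oxidation (log2 -3.74, SE 0.43, edgeR adjusted p 7.74e-04), Nampt, which makes the precursor of NAD (log2 -1.63, SE 0.21, edgeR adjusted p 8.52e-04), Klf15, a regulator of heart metabolism (log2 -1.92, SE 0.43, edgeR adjusted p 0.00697), and Kcnip2, a potassium channel subunit (log2 -2.30, SE 0.56, edgeR adjusted p 0.0104). Usp2, Dgat2, Ucp3 and Alas1 were the others, and Por and Wee1 were not called. Their median log2 change was -1.78 against 0.04 over all genes. After swimming Nampt and Klf15 were called lower, where 5.57% of all genes were. All 8 cardiomyocyte markers were also called lower in the comparison without swimming, with a median log2 change of -2.21, and 7 of the 8 without the Des-/- libraries numbered 3, Ttn being the exception (edgeR adjusted p 0.106). The part of cell make-up was not tested. The same 8 output genes were called without both Des-/- libraries numbered 3. Averaged over genotypes Pdk4 rose after swimming (log2 1.52, SE 0.28, edgeR adjusted p 0.0377). Its values were 239 to 677 CPM in Des+/+ non-swim, 327 to 663 CPM in Des+/+ swim, 23.4 to 44.8 CPM in Des-/- non-swim and 169 to 290 CPM in Des-/- swim libraries. The groups thus overlapped in Des+/+ and were apart in Des-/-, and with all libraries Pdk4 was called in neither genotype alone. Without both Des-/- libraries numbered 3 it was called for swimming in Des-/- (log2 2.80, edgeR adjusted p 0.0220). In Des+/+ it was not called in that fit (log2 0.29, edgeR adjusted p 0.618).

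Glucocorticoids reset the clock in many tissues and induce Per1, so 11 genes known to respond to them, Per1 among them, were set beside the other clock genes. None was called by edgeR in any comparison of all 12 libraries, where 4 were higher at an unadjusted p under 0.05 in Des+/+ and 1 in Des-/-, against 8.46% and 7.77% of all genes. In Des+/+ the swim libraries lay above all non-swim libraries for 7 of the 11, against 12.5% of all genes. In Des-/- this count was 0, against 10.4%, and the difference between these counts was not tested. Fkbp5, chosen after its values were seen, encodes a co-chaperone of the glucocorticoid receptor and was at 28.4, 20.6 and 52.2 CPM in Des+/+ non-swim and at 319, 141 and 523 CPM in Des+/+ swim libraries (log2 3.27, SE 0.77, edgeR adjusted p 0.0831). In Des-/- it was at 38.7, 50.5 and 89.7 CPM without and at 44.6, 68.2 and 347 CPM after swimming (log2 1.36, SE 0.72, edgeR adjusted p 0.355). The Des-/- swim library with 347 CPM of Fkbp5 was also the one with the highest Per1, at 305 CPM. It was replicate 3, which stood apart in its fibroblast and macrophage markers, so this is a description of 1 library. The interaction for Fkbp5 was -1.91 (SE 1.01, edgeR adjusted p 0.359). Without both Des-/- libraries numbered 3, Fkbp5 (log2 3.34, edgeR adjusted p 0.00533) and, chosen after their values were seen, the metallothionein genes Mt1 (log2 1.20, edgeR adjusted p 0.0161) and Mt2 (log2 2.07, edgeR adjusted p 0.00240) were called for swimming in Des+/+. In Des-/- Mt1 and Mt2 were called in that fit (log2 2.06 and 2.18, edgeR adjusted p 0.0115 and 0.00774) and Fkbp5 was not (log2 0.35, edgeR adjusted p 0.802). The interaction for Fkbp5 in that fit was -2.99 (edgeR adjusted p 0.0985), and Fkbp5 was called lower in Des-/- after swimming (log2 -2.53, edgeR adjusted p 0.0183). Klf9, Sgk1 and Tsc22d3 were at log2 changes of 0.56, 0.70 and 0.99 in Des+/+ and 0.57, 0.23 and 0.56 in Des-/-, and Dusp1 at -0.09 and -0.11, with edgeR adjusted p of at least 0.289. Without both Des-/- libraries numbered 3 the values in Des-/- were -0.087 for Klf9, -0.035 for Sgk1, -0.37 for Tsc22d3 and -0.81 for Dusp1, with edgeR adjusted p of at least 0.162, so that the first 3 lay on the other side of 0.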

How the data were processed

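Whole-number read counts per gene were deposited for each library. Per the labels and the study's methods, the authors aligned single-end reads to GRCm38 with HISAT2 2.2.1, handled alignments with SAMtools 1.13, counted reads with HTSeq-count set to reverse strand, and applied no normalisation to the counts. The 12 libraries were grouped by their labels. The tests were run with edgeR 4.0.16 (limma 3.58.1) under R 4.3.3. Genes were kept by filterByExpr (13158), libraries scaled by TMM, and all 12 libraries entered one fit with a mean for each of the 4 groups, which left 8 residual degrees of freedom. Quasi-likelihood tests were adjusted by Benjamini and Hochberg over all genes tested, with a call at an adjusted p under 0.05. The SE is the log2 change divided by the root of F. Correlations and log2 CPM used a prior count of 2. DESeq2 1.42.0, another scaling, other filters, fits of 6 libraries, a replicate block and leaving out libraries were the alternatives. Percentages of genes called by DESeq2 refer to the genes to which it gave an adjusted p in that comparison. The study's filter (absolute log2 change of at least 0.6, p of at most 0.05, mean count of at least 20) was applied with an unadjusted p. Positions and exon lengths came from GENCODE M21, which matched 21488 of the 21493 genes.

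The clock genes and the gene lists were chosen with earlier results of these data known, and the contrast averaged over genotypes, the block in Des-/- only and the fit without both Des-/- libraries numbered 3 were chosen after seeing the data. Named in the text are all 10 clock genes, list genes called in a comparison, up to 4 others per list with the highest mean CPM, Thra, Des, and the 5 genes most correlated with each of Arntl, Dbp and Nr1d1. 1 further list gene is not reported here. Others are named as chosen after their values were seen. The edgeR test was checked on simulated counts for the genotype contrast without swimming only. The simulation held no library set apart from its group, so it does not cover the swimming contrasts or the effect of the libraries numbered 3. The labels give only a replicate number, and libraries were taken as pairs for swimming in Des-/- only, from the data themselves. There the deviations from the group means of same-numbered libraries had correlations of 0.36, 0.32 and 0.60. Between libraries 1 and 2 the correlations were 0.30 and 0.29, and between these and libraries 3 they were -0.41 to -0.47. In Des+/+ those of same-numbered libraries were -0.41, -0.26 and 0.01. The counting floor of 3 reads covers counting error only. Uniquely aligned reads that the files assign to no gene or to several, 34.4 to 64.7% of uniquely aligned reads per library, were left out. The share was lowest in replicate 2 of Des+/+ non-swim (5326101 such reads beside 10177615 in genes). It was highest in replicate 2 of Des-/- swim (7907719 beside 4320819). In each genotype it was higher in all swim than in all non-swim libraries.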

Additional observations from a re-analysis of the deposited data

How the results depend on the processing

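Upper-quartile scaling and a mean count of at least 20 changed no count of called clock genes. The filter used by the study, on the unadjusted p, passed 1 clock gene for genotype after swimming, 3 for swimming in Des+/+, 2 for swimming in Des-/- and 3 averaged over genotypes. DESeq2 called 2, 1 and 2 for swimming in Des+/+, in Des-/- and averaged. Fitting only the 6 libraries compared called 1 in Des+/+. Averaged over genotypes, 2 were called with no filter on low counts, 0 with the replicate block, 3 with the block in Des-/- only and 3 without both Des-/- libraries numbered 3, a setting that also called 3 in Des+/+. The replicate block over all libraries called 0 clock genes in every other comparison. Leaving out each library in turn gave 0 to 1 called for swimming in Des+/+, 0 to 2 averaged and 0 for the others. Directions of values not called turned as follows. With no filter the interaction became -0.0091 for Per3 and -0.041 for Nr1d2. With the replicate block the genotype change without swimming became -0.19 for Arntl and -0.061 for Per3. Without both Des-/- libraries numbered 3 that change became -0.72 for Arntl, 0.075 for Per2, 0.22 for Nr1d1 and 0.030 for Nr1d2, the change after swimming -0.10 for Arntl, swimming in Des-/- -0.30 for Per1, and the interaction -0.0017 for Clock and -0.12 for Nr1d2. The cause was not tested. Leaving out each library in turn also turned values that were not called. For genotype without swimming they ran from -0.78 to 0.56 for Arntl, -0.22 to 0.61 for Per1, -1.05 to 0.61 for Per2, -0.11 to 0.61 for Per3, -0.60 to 0.16 for Nr1d1 and -0.069 to 0.75 for Dbp. For genotype after swimming they ran from -0.12 to 1.69 for Arntl, -0.23 to 0.057 for Clock, -0.97 to 0.27 for Per1, -0.064 to 0.71 for Per3 and -0.11 to 0.90 for Dbp. For swimming in Des+/+ they ran from -0.35 to 0.098 for Nr1d1 and -0.26 to 0.51 for Dbp. For swimming in Des-/- they ran from -2.11 to 0.24 for Arntl, -0.21 to 1.03 for Per1, -0.68 to 0.063 for Nr1d1, -0.095 to 0.43 for Nr1d2 and -0.31 to 0.71 for Dbp. For the interaction they ran from -0.31 to 2.02 for Arntl, -0.054 to 0.23 for Clock, -1.12 to 0.12 for Per1, -1.38 to 0.28 for Per2, -0.36 to 0.51 for Per3, -0.52 to 0.090 for Cry1, -0.38 to 0.19 for Cry2, -0.56 to 0.20 for Nr1d1, -0.28 to 0.26 for Nr1d2 and -0.38 to 0.63 for Dbp. Averaged over genotypes the value ran from -0.12 to 0.39 for Dbp. Depth limits the genes of low level, with as few as 15 reads of Arntl in replicate 2 of Des-/- swim.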
